A study of Danio rerio with 3 samples.

Results

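The comparison set maternal-zygotic (MZ) double mutant zebrafish embryos at 7 hours post fertilization (hpf), collected with dome morphology, beside embryos of the same genotype at 4.3 hpf whose label carries the stage tag 1k, so that transcript levels could be followed over time within the mutant. Genes entered it when the deposited table held a value for them and when the higher of the 2 mutant libraries reached at least 5 FPKM, a count of fragments corrected for transcript length and for library size. The table lists 26437 genes, 25386 had values, and 11065 of these were kept. The rule used no difference between the libraries, and genes just inside it, such as cfap36 (5 FPKM at MZ 7 hpf and 4.87 at MZ 4.3 hpf) and atg9b (3.56 FPKM at MZ 7 hpf and 5 at MZ 4.3 hpf), lay beside genes just outside it, such as nme4 (4.98 FPKM at MZ 7 hpf and 3.73 at MZ 4.3 hpf) and mrrf (4.38 FPKM at MZ 7 hpf and 4.98 at MZ 4.3 hpf).

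From dechorionated whole embryos of the AB strain 3 libraries were sequenced, 1 for each of 3 groups. They were MZ nup85-/-;nup133-/- embryos at 7 hpf and dome, MZ nup85-/-;nup133-/- embryos at 4.3 hpf and 1k, and wild-type embryos at 4.3 hpf and dome. Both mutant groups carried mutations in the same pair of nuclear pore genes, in the mother as well as in the embryo, of which the labels do not say what the alleles change. Age and stage tag differed together between the mutant groups, so their parts in any difference cannot be told apart. The MZ 7 hpf group differed from wild type in genotype and age together, and the MZ 4.3 hpf group in genotype and stage tag. The parts of these in any difference from wild type cannot be told apart either. How many embryos each library pooled is not stated. Without replicates nothing was tested: genes are described by size, as log2((MZ 7 hpf + 1)/(MZ 4.3 hpf + 1)) of FPKM, called the log2 ratio throughout. That scale understates differences of low genes. FPKM is a share of a library, so a lower value need not be a loss of RNA, and in whole embryos fewer cells of a type and less RNA per cell cannot be told apart.

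Nup85 and Nup133 belong to the Y complex, a scaffold of the nuclear pore, the channel through which proteins and RNA pass between nucleus and cytoplasm. A fish egg carries RNA laid down by the mother, which directs the first cell divisions while the embryo's own genome is nearly silent. At the maternal-to-zygotic transition the cell cycle lengthens, transcription of the embryo's genome begins under the maternal factors Nanog, Pou5f3 and SoxB1, and many maternal transcripts lose their poly(A) tails and are cleared. By dome the embryo has an outer epithelium, the enveloping layer, a yolk syncytial layer beneath the blastoderm, and the first regional differences that will become the germ layers and the body axes.

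The mutated genes and markers were read first. The transcript of nup85 stood at 9.55 FPKM in the MZ 7 hpf library, 10.35 in the MZ 4.3 hpf library and 13.2 in wild type. Nup133 stood at 1.91 FPKM at MZ 7 hpf, 0.31 at MZ 4.3 hpf and 11.7 in wild type, below 5 FPKM in both mutant libraries, so it was not among the genes kept. The FPKM of each library summed to 431333 at MZ 7 hpf, 397357 at MZ 4.3 hpf and 424486 in wild type, and the depth behind them is unknown. Genes listed at 0 numbered 2288 at MZ 7 hpf, 3999 at MZ 4.3 hpf and 2985 in wild type. Defining markers of the enveloping layer (krt4, krt18, cyt1, grhl3, klf17) summed to 1691 FPKM at MZ 7 hpf, 39.3 at MZ 4.3 hpf and 380.1 in wild type. Krt4 and krt18 held most of the sum at MZ 7 hpf, with 562.62 and 758.76 FPKM. Klf17 held most of it at MZ 4.3 hpf, with 32.02 FPKM. At MZ 7 hpf klf17 was below wild type, at 162.85 against 173.25 FPKM, whereas krt4, krt18, cyt1 and grhl3 were above it. Markers of the yolk syncytial layer (mxtx1, mxtx2, hnf4a, mtp) summed to 277.1 FPKM at MZ 7 hpf, 3.89 at MZ 4.3 hpf and 90.2 in wild type. Of these, hnf4a and mtp were listed at 0 at MZ 4.3 hpf. The 7 markers of differentiated tissue summed to 1.63 FPKM at MZ 7 hpf, 0.26 at MZ 4.3 hpf and 3.39 in wild type. The ovarian and liver markers vtg1, vtg5, cyp19a1a and gsdf summed to 0.12 FPKM at MZ 7 hpf, 0.27 at MZ 4.3 hpf and 0.15 in wild type. In a wider list of 18 ovarian and liver genes with values, 1 was kept, the steroidogenic enzyme gene cyp11a1, at 72.3 FPKM at MZ 7 hpf, 124 at MZ 4.3 hpf and 61.8 in wild type, and the list with it summed to 74.3 FPKM at MZ 7 hpf, 125 at MZ 4.3 hpf and 63.9 in wild type. The markers of muscle, blood and pancreas each stayed under 1 FPKM in all 3 libraries, and the neuronal marker elavl3 reached 0.88 FPKM at MZ 7 hpf, 0 at MZ 4.3 hpf and 1.44 in wild type.

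Across the genes kept, a small set stood far higher at 7 hpf and a larger set stood moderately lower. There were 944 genes (8.53% of those kept) at least 4-fold higher at 7 hpf and 666 (6.02%) that were lower by that much. At 2-fold the balance was the other way, with 1437 genes higher (13%) and 2788 lower (25.2%). These shares at 2-fold are the background for every count of list members below. Some genes belong to several lists, so the counts, medians and shares of different lists overlap. The tails had different lengths. At 8-fold 572 genes were higher and 45 lower, at 16-fold 273 higher and 0 lower, and at 64-fold 65 higher and 0 lower. The median log2 ratio of all genes kept was -0.24, the middle 50% lay between -1.01 and 0.32, the lowest ratio was -3.90 and the highest 9.36. Over all 25386 genes with values the median was 0. The median moved with the scaling, to -0.35 with library sums made equal, -0.09 by the median of ratios, -0.19 without the 1% most abundant genes and -0.55 on proteasome genes, so small ratios carry a sign that depends on it.

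The genes at the ends of this range had different levels of expression. The 944 genes at least 4-fold higher had a median of 19.1 FPKM at MZ 7 hpf, 0.50 at MZ 4.3 hpf and 4.76 in wild type, and together they held 14.3% of the MZ 7 hpf library, 1.08% of the MZ 4.3 hpf library and 5.77% of wild type. In 839 of them the level at 4.3 hpf was under 5 FPKM, so that they were kept through the 7 hpf library alone, and 90 were listed at 0 at 4.3 hpf. The 666 genes at least 4-fold lower had a median of 4.58 FPKM at MZ 7 hpf, 29.4 at MZ 4.3 hpf and 10.3 in wild type, and held 1.14% of the MZ 7 hpf library, 7.27% of the MZ 4.3 hpf library and 3.12% of wild type. In 355 of these 666 the level at 7 hpf was under 5 FPKM, so that they were kept through the 4.3 hpf library alone. Counted without the ratio, 620 genes (5.6%) reached 5 FPKM at MZ 7 hpf with under 1 FPKM at MZ 4.3 hpf, against 62 (0.56%) with the opposite pattern. Wild type lay between the mutant libraries for 793 of the 944 higher genes and for 601 of the 666 lower ones, against 5170 of all 11065 genes kept. A wide gap between the mutant libraries leaves more room for wild type to fall inside it. Both sets were chosen for such a gap, and its part in these counts was not tested.

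**Figure D1:**
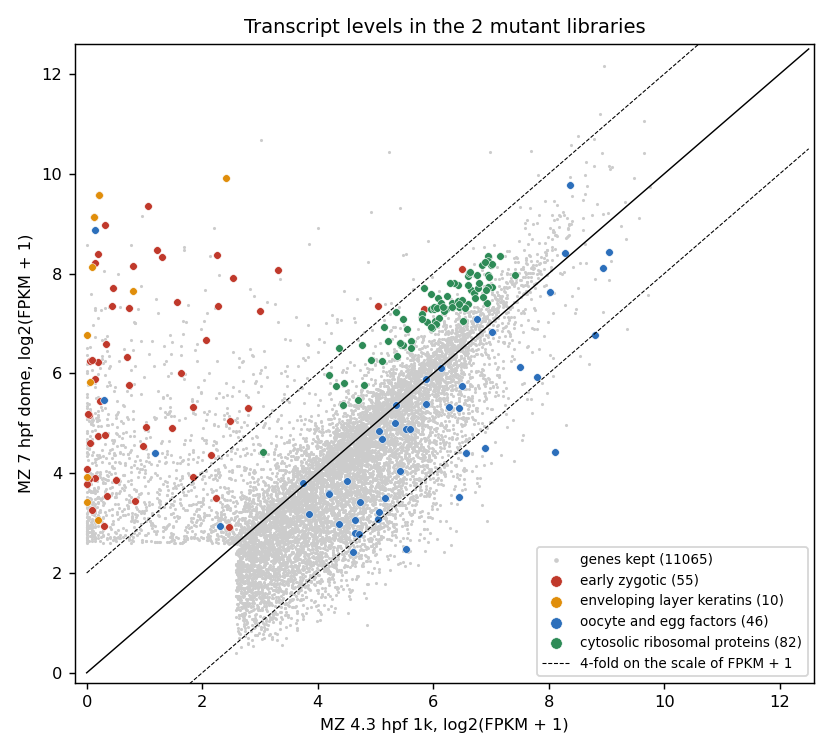
Level of each of the 11065 genes kept in the MZ 7 hpf library (vertical axis) against the MZ 4.3 hpf library (horizontal axis), both as log2(FPKM + 1), with members of 4 gene lists coloured and dashed lines at 4-fold. Early zygotic genes and keratins crowd the left edge near 0 at 4.3 hpf, ribosomal protein genes run as a narrow band above the diagonal, and oocyte genes lie mostly on or below it.

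The largest ratios belonged to genes of several kinds, among them epithelial keratins, transcription factors and a heat shock gene. Krt18, a keratin of simple epithelia, had 759 FPKM at MZ 7 hpf, 0.16 at MZ 4.3 hpf and 76.8 in wild type, the largest ratio of all genes kept (9.36). Tbx16, a T-box factor of mesoderm formation, had 297 FPKM at MZ 7 hpf, 0.11 at MZ 4.3 hpf and 60.9 in wild type. The small heat shock protein gene hspb1 had 1630 FPKM at MZ 7 hpf, 7.11 at MZ 4.3 hpf and 295 in wild type. All 15 genes with the largest higher ratios lay above the wild-type level at MZ 7 hpf and below that level at MZ 4.3 hpf. Besides those named they included the keratin genes krt4, krt5 and krt8, the starmaker gene stm, the RNA polymerase III subunit gene polr3gla, the Ly6 family gene lye, the apolipoprotein E gene apoeb, asb11, the kinase anchor gene akap12b, the claudin gene cldne and the ventral repressor gene ved.

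At the other end stood genes of several kinds. Buc, the organizer of the Balbiani body and germ plasm, had 20.4 FPKM at MZ 7 hpf, 274 at MZ 4.3 hpf and 124 in wild type. The related buc2l had 4.32 FPKM at MZ 7 hpf, 72.2 at MZ 4.3 hpf and 24.2 in wild type. The SoxB1 factor gene sox19b, a maternal activator of the genome, had 30.1 FPKM at MZ 7 hpf, 313 at MZ 4.3 hpf and 129 in wild type. Papd7, which encodes a poly(A) polymerase, had 5.40 FPKM at MZ 7 hpf, 66.2 at MZ 4.3 hpf and 6.70 in wild type. Of the 15 genes with the largest lower ratios, taken in the same way, sox19b was the most abundant at 7 hpf. The 15 also included the Wnt receptor gene fzd5, the mismatch repair gene pms2, mdm4, the cofilin phosphatase gene ssh2a, the nuclear envelope phosphatase gene ctdnep1b, the J-domain gene dnajc5ga, sh2d5, mtus1a, fam129bb, luzp1 and afap1l1a, and their ratios ran from -3.78 to -3.27.

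**Figure D2:**
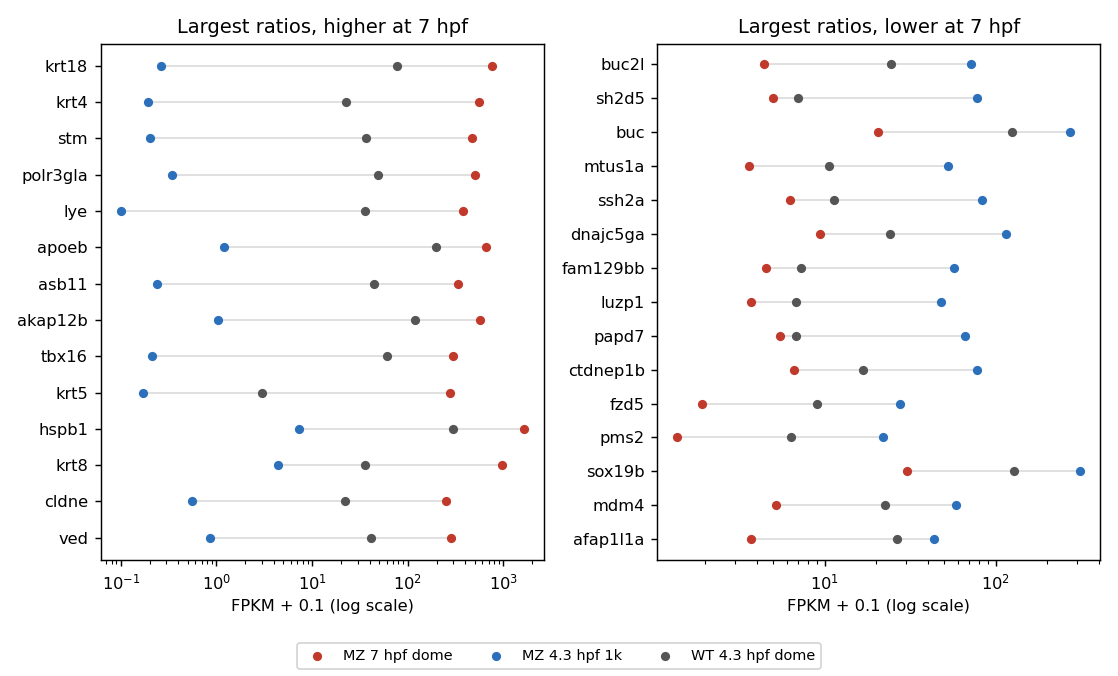
FPKM + 0.1 on a log scale in the 3 libraries for genes among the 15 with the largest ratios in each direction among those with at least 20 FPKM in the higher mutant library. In the left panel the MZ 7 hpf points lie furthest right and the MZ 4.3 hpf points furthest left, with 759 and 0.16 FPKM for krt18. In the right panel the order is reversed and wild type lies between.

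Genes known as the first to be transcribed by the embryo stood higher at 7 hpf almost throughout. Of 63 genes of the early zygotic list with values, 55 were kept, 54 of these at least 2-fold higher and 0 lower, beside 13% and 25.2% of all genes kept. The median log2 ratio was 4.60 over those kept and 4.36 over all 63. In 49 of the 55 the lower library was under 5 FPKM, so these could be kept through 1 library alone, and their count and median are descriptions. The Apelin receptor gene aplnrb had 100.9 FPKM at MZ 7 hpf, 3.20 at MZ 4.3 hpf and 63.2 in wild type. The Myc family gene mych had 240 FPKM at MZ 7 hpf, 4.77 at MZ 4.3 hpf and 92.9 in wild type. The exception was wnt8a, a ventral Wnt ligand gene picked out here for its ratio, at 6.54 FPKM in the MZ 7 hpf library, 4.50 in the MZ 4.3 hpf library and 5.28 in wild type, and the gene listed as wnt8-2 carried identical values. As a share of the library the list held 1.79% at MZ 7 hpf, 0.0649% at MZ 4.3 hpf and 0.646% in wild type.

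The ventral side of the body axis is set by Bmp ligands, and the homeobox repressors Vox, Vent and Ved act with them against dorsal fates. Of 31 ventral and Bmp genes 24 were kept, 16 at least 2-fold higher and 2 lower (median 3.71 over those kept, 1.27 over the 31). In 14 of the 24 the lower library was under 5 FPKM, so these were kept through 1 library alone. The ligand gene bmp2b had 58.3 FPKM at MZ 7 hpf, 0.11 at MZ 4.3 hpf and 26.6 in wild type. Ved had 283 FPKM at MZ 7 hpf, 0.75 at MZ 4.3 hpf and 40.8 in wild type. Vox had 328 FPKM at MZ 7 hpf, 3.77 at MZ 4.3 hpf and 71.6 in wild type. Both repressors were below 4 FPKM in the younger mutant library and above wild type in the older one, as was vent. Vent had 95.1 FPKM at MZ 7 hpf, 0.26 at MZ 4.3 hpf and 10.4 in wild type. The Bmp target gene id1 had 384 FPKM at MZ 7 hpf, 13.4 at MZ 4.3 hpf and 196 in wild type. A receptor and another Id gene went the other way. The type I receptor gene bmpr1ba had 5 FPKM at MZ 7 hpf, 26.2 at MZ 4.3 hpf and 18.4 in wild type. Id2a had 6.64 FPKM at MZ 7 hpf, 24.7 at MZ 4.3 hpf and 19.4 in wild type.

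The dorsal organizer counters Bmp with secreted antagonists. Only 10 of its 18 listed genes with values were kept, 8 at least 2-fold higher and 0 lower (median 3.36 over those kept, 2.13 over the 18). All 8 were under 5 FPKM at MZ 4.3 hpf and so were kept through the 7 hpf library alone. Chd, the gene of the antagonist chordin, had 35.2 FPKM at MZ 7 hpf, 0.02 at MZ 4.3 hpf and 11.9 in wild type. The homeobox gene gsc had 28.9 FPKM at MZ 7 hpf, 1.78 at MZ 4.3 hpf and 18.6 in wild type, and noto, required for the notochord, 68.2 FPKM at MZ 7 hpf, 0.18 at MZ 4.3 hpf and 35.3 in wild type. Each of these 3 was below 2 FPKM in the younger mutant library. Foxa3, dkk1b, otx1a, admp and sp5l had 74.97, 16.4, 12.09, 8.87 and 8.56 FPKM at MZ 7 hpf, each with under 0.4 FPKM at MZ 4.3 hpf. Lhx1a and cyp26a1 were within 2-fold. The retinoic acid degrading enzyme gene cyp26a1 had 59.5 FPKM at MZ 7 hpf, 65.2 at MZ 4.3 hpf and 36.0 in wild type.

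Mesodermal and endodermal genes showed both zygotic and maternal patterns. Of 24 mesoderm genes 10 were kept, 8 at least 2-fold higher and 0 lower (median 5.24 over those kept, 1.46 over the 24). In 9 of the 10 the lower library was under 5 FPKM, so these were kept through 1 library alone, and their count and median are descriptions. The brachyury gene ta had 80.0 FPKM at MZ 7 hpf, 0.30 at MZ 4.3 hpf and 8.98 in wild type. Apela and aplnra, ligand and receptor genes of the Apelin system that guides mesendodermal cells, shared this pattern. Apela had 76.1 FPKM at MZ 7 hpf, 0.07 at MZ 4.3 hpf and 33.1 in wild type. Aplnra had 91.5 FPKM at MZ 7 hpf, 0.04 at MZ 4.3 hpf and 23.6 in wild type. Snai1a, the gene of a repressor of cell adhesion, was high in all 3, at 170 FPKM at MZ 7 hpf, 124 at MZ 4.3 hpf and 114 in wild type.

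Of 23 genes of the Nodal pathway and endoderm 20 were kept, 11 at least 2-fold higher and 4 lower (median 1.62 over those kept, 0.74 over the 23). In 10 of the 20 the lower library was under 5 FPKM, so these were kept through 1 library alone. The endoderm regulators sox32, gata5 and gata6 stood higher at MZ 7 hpf than in either other library. Sox32 had 42.9 FPKM at MZ 7 hpf, 0.18 at MZ 4.3 hpf and 1.52 in wild type. Gata5 had 35.6 FPKM at MZ 7 hpf, 0.05 at MZ 4.3 hpf and 2 in wild type. Gata6 had 53.3 FPKM at MZ 7 hpf, 0.33 at MZ 4.3 hpf and 1.03 in wild type. All 3 were under 3 FPKM in the libraries of 4.3 hpf, both mutant and wild type. Cxcr4a, a chemokine receptor gene of endoderm migration, had 118 FPKM at MZ 7 hpf, 2.92 at MZ 4.3 hpf and 68.2 in wild type. The 4 lower members of the list went the other way, and of these smad2 and eomesa were the more abundant at MZ 4.3 hpf. The signal mediator gene smad2 had 44.0 FPKM at MZ 7 hpf, 196 at MZ 4.3 hpf and 107 in wild type. The T-box gene eomesa had 29.3 FPKM at MZ 7 hpf, 154 at MZ 4.3 hpf and 111 in wild type, and smad3b and acvr2aa were the other lower members, at 1.75 and 4.79 FPKM at MZ 7 hpf against 10.5 and 19.5 at MZ 4.3 hpf. The maternal ligand gene gdf3 had 197 FPKM at MZ 7 hpf, 259 at MZ 4.3 hpf and 350 in wild type.

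Of 39 ectodermal and early neural genes with values 17 were kept, 13 at least 2-fold higher and 1 lower (median 3.62 over those kept, 0.43 over the 39). The lower library was under 5 FPKM in 12 of the 17, which were thus kept through 1 library alone. Zic2b, a zinc finger gene of neural ectoderm, had 322 FPKM at MZ 7 hpf, 1.47 at MZ 4.3 hpf and 100.9 in wild type. The SoxB1 gene sox3 had 270 FPKM at MZ 7 hpf, 8.99 at MZ 4.3 hpf and 68.1 in wild type. The forkhead gene foxd5 had 73.7 FPKM at MZ 7 hpf, 0.14 at MZ 4.3 hpf and 25.02 in wild type. Wild type lay between the mutant libraries for these 3 genes. Otx1b ran opposite to its list, with 26.3 FPKM at MZ 7 hpf, 187 at MZ 4.3 hpf and 78.9 in wild type. Hox genes, which pattern the trunk later, gave no member at 5 FPKM among 48 with values.

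Among secreted signals, the Fgf and Wnt list had 34 of 50 genes kept, 18 at least 2-fold higher and 3 lower (median 1.38 over those kept, 0.73 over the 50). The lower library was under 5 FPKM in 17 of the 34, which were thus kept through 1 library alone. Wnt11, a ligand gene of gastrulation movements, had 83.2 FPKM at MZ 7 hpf, 1.11 at MZ 4.3 hpf and 26.6 in wild type. The Frizzled receptor gene fzd7a had 70.34 FPKM at MZ 7 hpf, 1.25 at MZ 4.3 hpf and 28.3 in wild type. The receptor gene fgfr4 had 32.4 FPKM at MZ 7 hpf, 0.06 at MZ 4.3 hpf and 15.14 in wild type, and dusp6, a feedback inhibitor gene of Fgf signalling, 49.1 FPKM at MZ 7 hpf, 0.63 at MZ 4.3 hpf and 30.0 in wild type. All 4 were under 2 FPKM at MZ 4.3 hpf. The lower members were the transcription factor genes etv5a and lef1 and the Wnt feedback gene axin2. Etv5a had 24.3 FPKM at MZ 7 hpf, 185 at MZ 4.3 hpf and 75.4 in wild type. Lef1 had 11.2 FPKM at MZ 7 hpf, 42.9 at MZ 4.3 hpf and 37.3 in wild type. Of 41 Notch, Hedgehog and retinoic acid genes 17 were kept, 5 higher and 4 lower. Their median was -0.13 over those kept and 0.06 over the 41. It became positive when scaled by the median of ratios, and 3 of the alternatives tried gave the other sign. In 7 of the 17 the lower library was under 5 FPKM, so these were kept through 1 library alone. In that list the Hedgehog transducer gene smo had 16.8 FPKM at MZ 7 hpf, 1.33 at MZ 4.3 hpf and 3.33 in wild type, and the retinoic acid binding protein gene crabp2b 10.4 FPKM at MZ 7 hpf, 0.15 at MZ 4.3 hpf and 8.23 in wild type.

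Cell movement and guidance genes had a median of 0.91 over 33 of 44 members kept and 0.76 over the 44, with 15 at least 2-fold higher and 2 lower. The lower library was under 5 FPKM in 14 of the 33, which were thus kept through 1 library alone. Has2, the gene of a hyaluronan synthase, had 36.9 FPKM at MZ 7 hpf, 0.04 at MZ 4.3 hpf and 19.6 in wild type. Rhoab, the gene of a small GTPase of the actin cytoskeleton, had 75.4 FPKM at MZ 7 hpf, 1.60 at MZ 4.3 hpf and 16.2 in wild type. The lower members were the fibronectin gene fn1a, with 3.70 FPKM at MZ 7 hpf, 14.6 at MZ 4.3 hpf and 3.44 in wild type, and the planar polarity gene prickle1a.

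Keratins of the enveloping layer, the tight epithelium that covers the blastoderm, had the highest median of all lists over members kept, though not over members with values. Of 18 keratin genes with values 10 were kept, and all of these 10 were kept through the 7 hpf library alone. Their median was 6.81, against 3.14 over the 18, which is below the 4.36 of the early zygotic list over its members with values. Krt8 had 969 FPKM at MZ 7 hpf, 4.31 at MZ 4.3 hpf and 36.0 in wild type. Krt4 had 563 FPKM at MZ 7 hpf, 0.09 at MZ 4.3 hpf and 22.6 in wild type. Krt5 had 279 FPKM at MZ 7 hpf, 0.07 at MZ 4.3 hpf and 2.92 in wild type. Wild type, which was also younger, lay far below the older mutant library for each of them. Krt97 had 200.3 FPKM at MZ 7 hpf, 0.74 at MZ 4.3 hpf and 5.98 in wild type. Cyt1 had 55.5 FPKM at MZ 7 hpf, 0.04 at MZ 4.3 hpf and 0.21 in wild type. Krt92, cyt1l and krt17 were listed at 0 at MZ 4.3 hpf and had 108, 14.2 and 9.75 FPKM at MZ 7 hpf. Keratins made up 0.688% of the MZ 7 hpf library, 0.00151% of the MZ 4.3 hpf library and 0.0350% of wild type. Reads shared by similar keratin copies may have been divided in ways the sources do not describe, so single values are uncertain. How many cells of the enveloping layer each library held is unknown, and the part of cell number in these ratios was not tested.

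Genes that regulate this layer or seal it were more mixed. Of 56 with values 37 were kept, 22 at least 2-fold higher and 1 lower (median 1.90 over those kept, 0.73 over the 56). In 18 of the 37 the lower library was under 5 FPKM, so these were kept through 1 library alone. Lye had 382 FPKM at MZ 7 hpf, was listed at 0 at MZ 4.3 hpf and had 35.4 in wild type. Lcp1, an actin bundling protein gene, had 65.2 FPKM at MZ 7 hpf, was listed at 0 at MZ 4.3 hpf and had 0.12 in wild type. Acer1, a ceramidase gene, had 72.4 FPKM at MZ 7 hpf, 1.52 at MZ 4.3 hpf and 0.60 in wild type. Epcam, an adhesion gene, was abundant throughout, at 484 FPKM at MZ 7 hpf, 322 at MZ 4.3 hpf and 657 in wild type.

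Claudins, the proteins of tight junctions, divided into members near 0 and members abundant at 4.3 hpf. Of 33 claudin genes 11 were kept, 5 at least 2-fold higher and 3 lower (median 0.38 over those kept, 0.10 over the 33). The lower library was under 5 FPKM in 5 of the 11, which were thus kept through 1 library alone. Cldne had 254 FPKM at MZ 7 hpf, 0.46 at MZ 4.3 hpf and 22.1 in wild type. Cldnb had 56.7 FPKM at MZ 7 hpf, 0.05 at MZ 4.3 hpf and 8 in wild type. Cldnd had 149 FPKM at MZ 7 hpf, 489 at MZ 4.3 hpf and 271 in wild type. The first pair were near 0 in the younger mutant library, where cldnd had its highest level. Cldng, with 47.6 FPKM at MZ 7 hpf, 251 at MZ 4.3 hpf and 200 in wild type, and cldn12, with 13.1 FPKM at MZ 7 hpf, 33.0 at MZ 4.3 hpf and 39.7 in wild type, were the other lower members.

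The yolk syncytial layer takes up yolk and exports lipid as lipoprotein. Of 36 genes of this layer and of lipoproteins 14 were kept, 13 of them through the 7 hpf library alone, and all 14 were at least 2-fold higher (median 5.10, against 0.55 over the 36). Apoeb had 655 FPKM at MZ 7 hpf, 1.1 at MZ 4.3 hpf and 197 in wild type. Mtp, whose product loads lipid onto apolipoprotein B, had 41.2 FPKM at MZ 7 hpf, was listed at 0 at MZ 4.3 hpf and had 0.06 in wild type. Afp4 had 81.6 FPKM at MZ 7 hpf, was listed at 0 at MZ 4.3 hpf and had 0.10 in wild type. Both were near 0 in wild type too. The homeobox gene mxtx2, which directs formation of the layer, had 162 FPKM at MZ 7 hpf, 3.86 at MZ 4.3 hpf and 77.2 in wild type. The cathepsin L gene ctsla was abundant in all 3 libraries, at 1121 FPKM at MZ 7 hpf, 546 at MZ 4.3 hpf and 776 in wild type.

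Genes listed as maternal did not move as 1 group. The list of maternal regulators, which holds activators of the genome and maternal axis factors, had 33 of 34 members kept, 9 at least 2-fold higher and 7 lower. Its median of 0.32 turned negative when scaled on proteasome genes. Nanog, the most abundant transcript of the MZ 4.3 hpf library, had 850.3 FPKM at MZ 7 hpf, 861 at MZ 4.3 hpf and 1244 in wild type. Its partner sox19b, as above, was lower at 7 hpf. The coactivator genes ep300a and crebbpa had 11.5 and 6.44 FPKM at MZ 7 hpf against 28.5 and 28.0 at MZ 4.3 hpf. Chromatin proteins of the HMG family went the other way. Hmga1a had 2355 FPKM at MZ 7 hpf, 473 at MZ 4.3 hpf and 1107 in wild type. Hmgb2a had 1208 FPKM at MZ 7 hpf, 401 at MZ 4.3 hpf and 978 in wild type. Hmgb3a had 63.2 FPKM at MZ 7 hpf, 3.33 at MZ 4.3 hpf and 5.89 in wild type. All 3 were also above wild type at MZ 7 hpf, and hmgb3a was under 5 FPKM at MZ 4.3 hpf. The RNA and cold shock domain protein gene ybx1 had 879 FPKM at MZ 7 hpf, 329 at MZ 4.3 hpf and 529 in wild type.

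Factors of the oocyte and egg were lower on balance. Of 57 with values 46 were kept, 19 at least 2-fold lower and 4 higher (median -0.69 over those kept, -0.62 over the 57), beside 25.2% and 13% of all genes kept. Besides buc, the translation control gene cpeb1b had 4.60 FPKM at MZ 7 hpf, 45.0 at MZ 4.3 hpf and 22.2 in wild type. The higher members were stm, esrp1, dact2 and ybx1. Stm had 465 FPKM at MZ 7 hpf and 0.10 at MZ 4.3 hpf, with 36.6 in wild type. Esrp1, a splicing regulator gene of epithelia, had 43.4 FPKM at MZ 7 hpf, 0.23 at MZ 4.3 hpf and 1.08 in wild type. Dact2, an inhibitor gene of Nodal signalling, had 20.3 FPKM at MZ 7 hpf, 1.27 at MZ 4.3 hpf and 10.02 in wild type. These 3 were thus below 2 FPKM in the younger mutant library. Egg coat proteins of the zona pellucida family had 15 of 18 genes kept, 2 at least 2-fold lower and 0 higher. Both shares were below the 25.2% and 13% of all genes kept. Their median of -0.18 was close to the -0.24 of all genes kept. Zp3c had 10.3 FPKM at MZ 7 hpf, 30.6 at MZ 4.3 hpf and 42.1 in wild type.

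Germ plasm, the cytoplasm that specifies germ cells, had 27 of 30 genes kept, 13 at least 2-fold lower and 1 higher (median -0.82 over those kept, -0.80 over the 30). The most abundant member of this list was the maternal linker histone gene h1m. With h1m the list held 0.197% at MZ 7 hpf, 0.397% at MZ 4.3 hpf and 0.412% in wild type. Without h1m it held 0.133% at MZ 7 hpf, 0.274% at MZ 4.3 hpf and 0.209% in wild type. Tdrd6 and tdrd1, Tudor domain genes of the germ granule, had 4.16 and 5.50 FPKM at MZ 7 hpf, 37.0 and 43.5 at MZ 4.3 hpf, and 7.6 and 19.5 in wild type. Dazl, a translation factor gene of germ cells, had 13.6 FPKM at MZ 7 hpf, 36.1 at MZ 4.3 hpf and 10.9 in wild type. The germ cell markers ddx4, nanos3, dnd1 and dazl summed to 131 FPKM at MZ 7 hpf, 164 at MZ 4.3 hpf and 189 in wild type. The helicase gene ddx4 (vasa) had 98.3 FPKM at MZ 7 hpf, 87.4 at MZ 4.3 hpf and 133 in wild type. Cxcr4b, the receptor gene of germ cell migration, which other cells also transcribe, was the member that was higher, at 85.4 FPKM at MZ 7 hpf, 4.76 at MZ 4.3 hpf and 54.1 in wild type.

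Related genes of which one is known or thought to be supplied by the egg were compared side by side. In 8 of the 14 pairs the egg gene was at least 2-fold lower at MZ 7 hpf, in 6 the related gene was at least 2-fold higher, and in 3 both held. The 6 include h1f0, which was below 5 FPKM in both mutant libraries and so not among the genes kept. Of all genes kept, 25.2% were lower and 13% higher by 2-fold or more. Whether the pairs stand out from that background was not tested. Sox19b had 30.1 FPKM at MZ 7 hpf and 313 at MZ 4.3 hpf, whereas sox19a had 173 at MZ 7 hpf and 1.94 at MZ 4.3 hpf. The helicase subunit gene mcm3l had 15.9 FPKM at MZ 7 hpf and 59.9 at MZ 4.3 hpf, whereas mcm3 had 82.0 at MZ 7 hpf and 6.25 at MZ 4.3 hpf. Mcm6l hardly differed, at 44.1 FPKM at MZ 7 hpf and 47.1 at MZ 4.3 hpf, while mcm6 had 31.9 at MZ 7 hpf and 0.13 at MZ 4.3 hpf. The mitotic inhibitor kinase gene wee2 had 69.2 FPKM at MZ 7 hpf and 181 at MZ 4.3 hpf, whereas wee1 had 130 at MZ 7 hpf and 8.94 at MZ 4.3 hpf. In the sox19, mcm3 and wee pairs the more abundant gene was thus a different one in each mutant library.

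Other pairs moved with 1 member or together. The G1 cyclin gene ccnd1 had 356 FPKM at MZ 7 hpf, 1.33 at MZ 4.3 hpf and 70.15 in wild type, beside ccne1 at 469 FPKM at MZ 7 hpf, 384 at MZ 4.3 hpf and 428 in wild type. The importin alpha gene kpna7 had 15.7 FPKM at MZ 7 hpf, 94.4 at MZ 4.3 hpf and 49.4 in wild type. Kpna2 had 46.5 FPKM at MZ 7 hpf, 26.5 at MZ 4.3 hpf and 30.1 in wild type. Of the TATA-box factor genes, tbpl2 had 4.37 FPKM at MZ 7 hpf against 23.4 at MZ 4.3 hpf. Tbp had 130 FPKM at MZ 7 hpf against 254 at MZ 4.3 hpf, just inside 2-fold. The maternal linker histone gene h1m had 277 FPKM at MZ 7 hpf, 489 at MZ 4.3 hpf and 865 in wild type, far above h1f0, which had 4.85 FPKM at MZ 7 hpf, 0.04 at MZ 4.3 hpf and 2.56 in wild type.

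**Figure D3:**
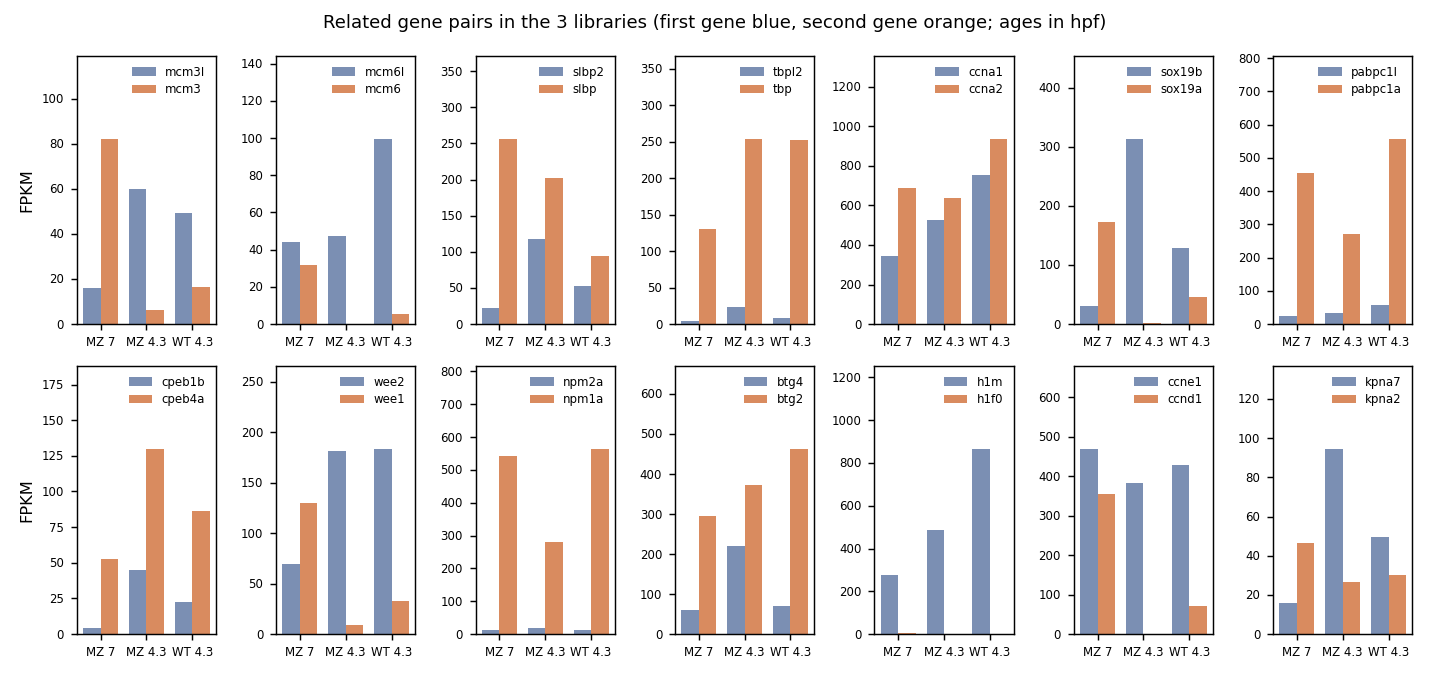
FPKM in the MZ 7 hpf, MZ 4.3 hpf and wild-type 4.3 hpf libraries for 14 pairs of related genes, the gene listed as supplied by the egg in blue and its relative in orange, each panel on its own linear axis. For the sox19, mcm3, wee and kpna pairs the taller bar changes between the mutant libraries, while h1m stays above h1f0 and pabpc1a above pabpc1l in all 3.

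Factors that shorten and destroy mRNA were lower more often than higher, as were all genes kept. Of 84 genes of decay and deadenylation 81 were kept, 22 at least 2-fold lower and 2 higher (median -0.31 over those kept, -0.26 over the 84), and their summed share was 0.979% at MZ 7 hpf, 1.53% at MZ 4.3 hpf and 1.31% in wild type. The lower share, 22 of 81, was close to the 25.2% of all genes kept, and the higher share, 2 of 81, was below their 13%. Cth1, a zinc finger gene of the family that binds AU-rich elements, had 118 FPKM at MZ 7 hpf, 654 at MZ 4.3 hpf and 446 in wild type. Btg4, a recruiter of the CCR4-NOT deadenylase in egg clearance, had 60.0 FPKM at MZ 7 hpf, 221 at MZ 4.3 hpf and 69.3 in wild type. The deadenylase subunit gene cnot7 had 1.85 FPKM at MZ 7 hpf, 16.5 at MZ 4.3 hpf and 4.20 in wild type. Wild type was nearer to the older mutant library for btg4 and cnot7, and nearer to the younger one for cth1. The decay factor gene lsm1 had 5.2 FPKM at MZ 7 hpf, 41.9 at MZ 4.3 hpf and 8.51 in wild type. The Argonaute gene ago1 had 4.34 FPKM at MZ 7 hpf, 30.0 at MZ 4.3 hpf and 9.61 in wild type. The higher members were btg1, at 69.0 FPKM at MZ 7 hpf, 5.25 at MZ 4.3 hpf and 30.7 in wild type, and upf2, at 15.9 FPKM at MZ 7 hpf, 7.10 at MZ 4.3 hpf and 4.21 in wild type. Cytoplasmic polyadenylation and repression genes, 42 kept of 48, had 4 higher and 4 lower, and their median of 0.09 turned negative with equal sums and on proteasome genes.

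Cell cycle genes ran in both directions. Of 75 cyclins, kinases and their regulators 65 were kept, 14 at least 2-fold higher and 9 lower, beside 13% and 25.2% of all genes kept. Their median of 0.02 turned negative with equal sums and on proteasome genes. Ccne2, an S phase cyclin gene, had 98.5 FPKM at MZ 7 hpf, 1.80 at MZ 4.3 hpf and 11.9 in wild type. The cell cycle inhibitor gene cdkn1ca had 66.2 FPKM at MZ 7 hpf, 0.70 at MZ 4.3 hpf and 28.6 in wild type. The repressor gene e2f7 had 24.4 FPKM at MZ 7 hpf, 0.39 at MZ 4.3 hpf and 2.25 in wild type. These 3 were under 2 FPKM at MZ 4.3 hpf and above wild type at MZ 7 hpf. Of the mitotic B cyclins ccnb2 was at least 2-fold lower and ccnb1 was not. Ccnb2 had 188 FPKM at MZ 7 hpf, 844 at MZ 4.3 hpf and 615 in wild type. Ccnb1 had 555 FPKM at MZ 7 hpf, 751 at MZ 4.3 hpf and 989 in wild type. Ccnj had 2.42 FPKM at MZ 7 hpf, 28.1 at MZ 4.3 hpf and 5.68 in wild type. Ccnj thus lay further below its level at MZ 4.3 hpf, on the log2 ratio, than either B cyclin. The checkpoint kinase genes atr and chek2 had 0.72 and 7.27 FPKM at MZ 7 hpf, against 7.34 and 23.3 at MZ 4.3 hpf.

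In DNA replication all 69 genes with values were kept, 5 at least 2-fold higher and 13 lower. Their median of -0.12 became positive when scaled by the median of ratios. The maintenance methyltransferase gene dnmt1 had 44.1 FPKM at MZ 7 hpf, 207 at MZ 4.3 hpf and 105 in wild type. The clamp loader gene rfc1 had 6.31 FPKM at MZ 7 hpf, 40.1 at MZ 4.3 hpf and 18.9 in wild type. The topoisomerase gene top2a had 26.2 FPKM at MZ 7 hpf, 4.59 at MZ 4.3 hpf and 10.7 in wild type. In DNA repair 54 of 62 genes were kept, 15 lower and 1 higher (median -0.36 over those kept, -0.27 over the 62). The lower share of repair genes was close to the 25.2% of all genes kept, and that of replication genes was below it. In both lists the higher share was below the 13% of all genes kept.

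Among histone genes h3f3a, which encodes the variant H3.3, was the most abundant, with 1730 FPKM at MZ 7 hpf, 363 at MZ 4.3 hpf and 826 in wild type. Of 13 histone genes kept 6 were at least 2-fold higher and 0 lower (median 0.64). The 80 chromatin regulators kept had 7 higher and 14 lower and a median of -0.02, which became positive by the median of ratios and without the most abundant genes. Mbd3b, a subunit gene of the NuRD complex, had 57.2 FPKM at MZ 7 hpf, 10.99 at MZ 4.3 hpf and 21.9 in wild type. Dnmt3bb.2, a de novo DNA methyltransferase gene, had 65.7 FPKM at MZ 7 hpf, 25.4 at MZ 4.3 hpf and 30.2 in wild type, whereas the Polycomb gene bmi1a had 29.9 FPKM at MZ 7 hpf, 117 at MZ 4.3 hpf and 97.1 in wild type. Of 98 RNA polymerase and general factor genes kept 16 were lower and 1, polr3gla, was higher, at 500.9 FPKM at MZ 7 hpf, 0.24 at MZ 4.3 hpf and 48.2 in wild type. The median of that list, -0.05, turned positive under the same scalings.

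Transcription factor families held members of both kinds. Of the Sox, Fox, Gata, Klf and T-box genes 47 were kept, 23 at least 2-fold higher and 15 lower (median 0.88 over those kept, 0.03 over all with values). In 30 of the 47 the lower library was under 5 FPKM, so these were kept through 1 library alone. Foxa3, a forkhead gene of endoderm, had 74.97 FPKM at MZ 7 hpf, 0.04 at MZ 4.3 hpf and 15.9 in wild type. Foxp1a had 6.63 FPKM at MZ 7 hpf, 43.0 at MZ 4.3 hpf and 15.6 in wild type. The mitotic regulator gene foxm1 had 16.9 FPKM at MZ 7 hpf, 58.2 at MZ 4.3 hpf and 28.2 in wild type. Ratios in these families thus ran in both directions. Of the immediate early and stress factors 14 of 25 genes kept were at least 2-fold higher and 0 lower (median 2.60 over those kept, 0.43 over 42 with values). The lower library was under 5 FPKM in 13 of the 25, which were thus kept through 1 library alone. Ier5 had 99.1 FPKM at MZ 7 hpf, 1.2 at MZ 4.3 hpf and 37.2 in wild type. Atf4a, the transcription factor gene of the integrated stress response, had 74.7 FPKM at MZ 7 hpf, 2.77 at MZ 4.3 hpf and 20.8 in wild type.

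Zinc finger genes known only by number are numerous in fish and lie in clusters. Of 169 with values 121 were kept, 29 at least 2-fold higher and 30 lower, and the median was -0.34 over those kept and -0.13 over the 169. The lower share was close to the 25.2% of all genes kept, and the higher share was above their 13%. In 51 of the 121 the lower library was under 5 FPKM, so these were kept through 1 library alone. The higher members had the larger ratios, and past 4-fold there were 25 higher and 5 lower ones. Znf1043 had 198 FPKM at MZ 7 hpf, 0.77 at MZ 4.3 hpf and 222 in wild type. Znf995 had 137 FPKM at MZ 7 hpf, 0.14 at MZ 4.3 hpf and 106 in wild type. Znf185, a LIM domain gene that shares only the naming scheme, had 128 FPKM at MZ 7 hpf, 0.79 at MZ 4.3 hpf and 1.51 in wild type. Copies in these clusters resemble each other, so their single values are as uncertain as those of the keratins.

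Cytosolic ribosomal protein, ribosome biogenesis, translation factor and spliceosome genes took a larger part of the older mutant library. Mitochondrial ribosomal protein genes took a smaller part of it, 0.253% at MZ 7 hpf against 0.340% at MZ 4.3 hpf. For tRNA synthetase genes the share was 0.169% at MZ 7 hpf and 0.184% at MZ 4.3 hpf. Their summed FPKM was nearly equal, at 729 and 731, so that difference in share lay mostly in the library sums. Of 82 cytosolic ribosomal protein genes kept, of 83 with values, 58 were at least 2-fold higher and 0 lower, and none of the 82 was under 5 FPKM in either library. Their median was 1.17 and their summed share 3.14% at MZ 7 hpf, 1.54% at MZ 4.3 hpf and 2.39% in wild type. The ratios were close together, and only 1, for rps26l, passed 4-fold, at 89.5 FPKM at MZ 7 hpf, 19.5 at MZ 4.3 hpf and 33.6 in wild type. Rps6 had 208 FPKM at MZ 7 hpf, 56.6 at MZ 4.3 hpf and 89.7 in wild type. Rpl6 had 323 FPKM at MZ 7 hpf, 141 at MZ 4.3 hpf and 160.1 in wild type. Mitochondrial ribosomal proteins, 68 kept of 74, had 3 higher and 7 lower and a median of -0.24, close to that of all genes kept.

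Of 71 translation factors kept 12 were at least 2-fold higher and 4 lower (median 0.41). The elongation factor gene eef1a1l1 was the most abundant transcript of the MZ 7 hpf library at 4565 FPKM, against 493 at MZ 4.3 hpf and 1913 in wild type. The list held 2.42% of the MZ 7 hpf library, 1.25% of the MZ 4.3 hpf library and 1.87% of wild type, and without eef1a1l1 it held 1.36% at MZ 7 hpf, 1.12% at MZ 4.3 hpf and 1.41% in wild type, so most of the difference between the mutant libraries lay in that gene. The 4 lower members were eif2ak1, eif4ebp2, eif4e3 and eif4g3b. The kinase gene eif2ak1, a brake on initiation, had 15.5 FPKM at MZ 7 hpf, 64.8 at MZ 4.3 hpf and 31.2 in wild type. The cap-binding inhibitor gene eif4ebp2 had 28.5 FPKM at MZ 7 hpf, 111 at MZ 4.3 hpf and 78.6 in wild type. The 109 ribosome biogenesis genes, all kept, had 14 higher and 3 lower. The higher share was close to the 13% of all genes kept, and the lower share was below their 25.2%. Their median of 0.32 went as low as 0.002 under the alternatives tried. Rrp15 had 28.8 FPKM at MZ 7 hpf, 3.06 at MZ 4.3 hpf and 7.13 in wild type.

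Of 95 spliceosome genes 94 were kept, 22 at least 2-fold higher and 1 lower (median 0.53). They held 4.39% of the MZ 7 hpf library, 2.54% of the MZ 4.3 hpf library and 3.66% of wild type. The splicing factor gene srsf5a had 640 FPKM at MZ 7 hpf, 41.7 at MZ 4.3 hpf and 208 in wild type. Hnrnpa0b, an abundant RNA-binding protein gene, had 1403 FPKM at MZ 7 hpf, 206 at MZ 4.3 hpf and 647 in wild type. The splicing repressor gene ptbp1a had 62.2 FPKM at MZ 7 hpf, 6.37 at MZ 4.3 hpf and 8.58 in wild type. All 3 were higher at MZ 7 hpf than in either library of 4.3 hpf. The lower member was lsm4 at 45.1 FPKM at MZ 7 hpf, 95.8 at MZ 4.3 hpf and 66.6 in wild type.

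**Figure D4:**
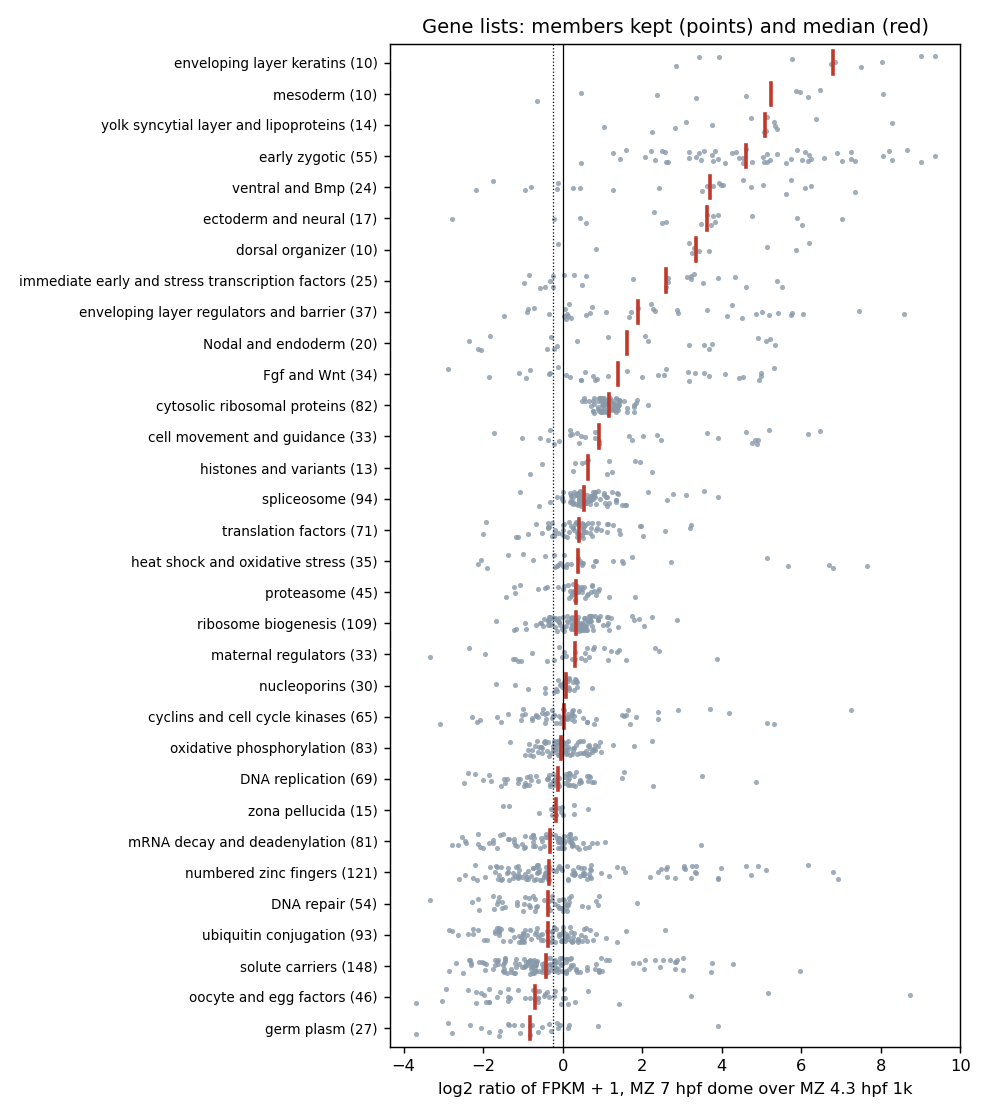
Log2 ratio of FPKM + 1, MZ 7 hpf over MZ 4.3 hpf, for each member kept (grey points) of 32 gene lists, with the number kept in brackets, the list median in red and the median of all genes kept (-0.24) as a dotted line. Some genes belong to several lists. Medians run from 6.81 for enveloping layer keratins to -0.82 for germ plasm; ribosomal protein genes form a tight cloud around 1.17, while the cell cycle and zinc finger lists spread widely around medians near the dotted line.

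Genes of the nuclear pore itself, the structure to which the mutated genes belong, mostly stayed within 2-fold. Of 32 nucleoporin genes 30 were kept, 0 at least 2-fold higher and 2 lower. Their median of 0.07 turned negative with equal sums and on proteasome genes. The lower members were nup35, at 45.4 FPKM at MZ 7 hpf, 147 at MZ 4.3 hpf and 109 in wild type, and ahctf1, whose product seeds pore assembly on chromatin, at 22.9 FPKM at MZ 7 hpf, 54.1 at MZ 4.3 hpf and 29.4 in wild type. Nup98, with 88.7 FPKM at MZ 7 hpf, 53.03 at MZ 4.3 hpf and 52.2 in wild type, had the largest higher ratio. Of 48 nuclear transport genes kept 4 were higher and 6 lower (median 0.13, negative on proteasome genes). The importin genes kpna3 and kpna5 had 24.3 and 17.6 FPKM at MZ 7 hpf, 3.21 and 2.74 at MZ 4.3 hpf, and 2.77 and 3.90 in wild type. Snupn, which carries spliceosomal RNA particles into the nucleus, had 44.3 FPKM at MZ 7 hpf, 156 at MZ 4.3 hpf and 103 in wild type. The exportin gene xpo6 had 38.1 FPKM at MZ 7 hpf, 128 at MZ 4.3 hpf and 149 in wild type.

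Of 69 chaperone genes kept 12 were at least 2-fold higher and 8 lower, beside 13% and 25.2% of all genes kept, and their median of 0.25 turned negative on proteasome genes. The J-domain gene dnajc5ga had the lowest ratio of them, -3.49. Hsp90aa1.2 had 354 FPKM at MZ 7 hpf, 2.21 at MZ 4.3 hpf and 4.02 in wild type. Hsp70.3 had 483 FPKM at MZ 7 hpf, 3.63 at MZ 4.3 hpf and 11.1 in wild type. Hsp70l had 55.4 FPKM at MZ 7 hpf, 0.11 at MZ 4.3 hpf and 0.27 in wild type. All 3 were many-fold lower in both libraries of 4.3 hpf. The hsp70 copies are nearly identical, so the division between them is uncertain. The constitutive hspa8 was high in all 3 libraries, at 1355 FPKM at MZ 7 hpf, 481 at MZ 4.3 hpf and 1327 in wild type. Of 35 heat shock and oxidative stress genes kept 10 were at least 2-fold higher and 4 lower (median 0.39), and the share of that list was 1.49% at MZ 7 hpf, 0.660% at MZ 4.3 hpf and 0.982% in wild type. The lower members were the antioxidant genes sod1, txnrd1 and gstp1 and the J-domain gene dnajb1a. Gstp1, a glutathione transferase gene, had 60.7 FPKM at MZ 7 hpf, 269 at MZ 4.3 hpf and 155 in wild type.

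In the list of apoptosis and its regulators 11 of 35 genes kept were at least 2-fold higher and 5 lower, and the median of 0.07 turned negative with equal sums and on proteasome genes. Mdm4 had 5.13 FPKM at MZ 7 hpf, 58.9 at MZ 4.3 hpf and 22.5 in wild type. Cdkn1a, a cell cycle inhibitor gene, and sesn3, a stress response gene, had 19.5 and 68.3 FPKM at MZ 7 hpf, 1.76 and 0.30 at MZ 4.3 hpf, and 4.74 and 1.77 in wild type. Genes that oppose cell death were among the lower ones, with mcl1a at 38.7 FPKM at MZ 7 hpf, 107 at MZ 4.3 hpf and 77.6 in wild type and birc5b at 9.34 FPKM at MZ 7 hpf, 44.3 at MZ 4.3 hpf and 30.6 in wild type.

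Housekeeping functions had small ratios. Oxidative phosphorylation had 83 of 97 genes kept, 3 at least 2-fold higher and 1 lower. Their median of -0.04 turned positive by the median of ratios and without the most abundant genes. The proteasome had 45 of 56 kept, 2 higher and 4 lower (median 0.33, and 0 by construction when its own genes set the scale), the secretory pathway 67 of 68, 3 higher and 6 lower (median 0.07, negative with equal sums and on proteasome genes), and tRNA synthetases 29 of 36, 0 higher and 4 lower (median 0.14, negative on proteasome genes). Of 93 ubiquitin conjugation genes kept 29 were at least 2-fold lower and 4 higher (median -0.38), beside 25.2% lower and 13% higher of all genes kept. Fbxo43, an inhibitor gene of the anaphase-promoting complex in eggs, had 11.8 FPKM at MZ 7 hpf, 92.2 at MZ 4.3 hpf and 33.9 in wild type. Its relative fbxo5 (emi1) had 115 FPKM at MZ 7 hpf, 37.6 at MZ 4.3 hpf and 74.8 in wild type.

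Glycolysis genes differed little on balance. Of 25 genes kept 6 were at least 2-fold lower and 1 higher, and the median of 0.13 turned negative on proteasome genes. Among the lower ones were pgam1a, a phosphoglycerate mutase gene, at 23.5 FPKM at MZ 7 hpf, 89.9 at MZ 4.3 hpf and 37.9 in wild type, and the lactate dehydrogenase gene ldha, at 3.26 FPKM at MZ 7 hpf, 16.02 at MZ 4.3 hpf and 4.29 in wild type. In lipid and sterol synthesis, 5 of 36 genes kept were higher and 8 lower (median -0.26), with hmgcs1, of the cholesterol pathway, at 20.1 FPKM at MZ 7 hpf, 101 at MZ 4.3 hpf and 67.5 in wild type, and the ceramide synthase gene cers2b at 38.7 FPKM at MZ 7 hpf, 4.36 at MZ 4.3 hpf and 5.42 in wild type. Solute carriers, the largest list, had 148 of 371 genes kept, 20 higher and 36 lower (median -0.43 over those kept, -0.05 over the 371). The lower shares of glycolysis genes, lipid genes and solute carriers were close to the 25.2% of all genes kept. The higher shares of lipid genes and solute carriers were close to the 13% of all genes kept. The amino acid transporter gene slc7a8a had 71.9 FPKM at MZ 7 hpf, 0.16 at MZ 4.3 hpf and 4.76 in wild type. Slc3a2b, the heavy chain gene of such transporters, had 130 FPKM at MZ 7 hpf, 19.3 at MZ 4.3 hpf and 3.06 in wild type.

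**Figure D5:**
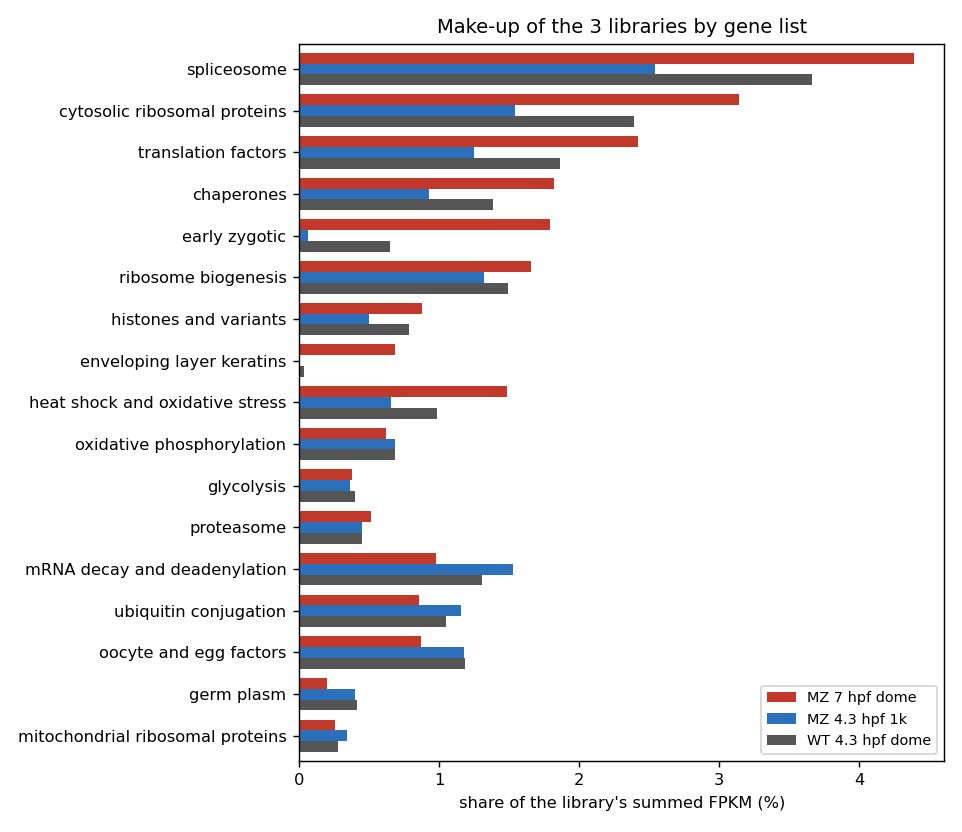
Share of each library's summed FPKM (horizontal axis, percent) held by 17 gene lists, with bars for MZ 7 hpf, MZ 4.3 hpf and wild type at 4.3 hpf from top to bottom in each group. Some genes belong to several lists, so shares overlap. Spliceosome, ribosomal protein and translation factor genes hold 4.39%, 3.14% and 2.42% at MZ 7 hpf against 2.54%, 1.54% and 1.25% at MZ 4.3 hpf, and wild type lies between; mRNA decay and germ plasm genes hold less at MZ 7 hpf.

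Cytoskeletal genes, which drive the spreading of the blastoderm over the yolk, were led by a few abundant transcripts. Of 56 actin and epiboly genes kept 13 were at least 2-fold higher and 4 lower (median 0.28, negative on proteasome genes). Marcksl1b, the gene of a membrane-associated actin regulator, had 1385 FPKM at MZ 7 hpf, 36.7 at MZ 4.3 hpf and 401 in wild type. The actin gene actb2 had 1134 FPKM at MZ 7 hpf, 529 at MZ 4.3 hpf and 1497 in wild type. The tropomyosin gene tpm4b, picked out here after its values were known, was higher, at 45.6 FPKM at MZ 7 hpf, 4.73 at MZ 4.3 hpf and 30.5 in wild type. Among the lower members were another tropomyosin gene, tpm1, at 13.7 FPKM at MZ 7 hpf, 60.6 at MZ 4.3 hpf and 21.4 in wild type and the profilin gene pfn2 at 231 FPKM at MZ 7 hpf, 526 at MZ 4.3 hpf and 546 in wild type. The 32 kinesin and dynein genes kept had 3 higher and 13 lower (median -0.50), with the dynein light chain gene dynll1 as the largest exception, at 481 FPKM at MZ 7 hpf, 15.13 at MZ 4.3 hpf and 152 in wild type. Of 14 tubulin and gamma-tubulin complex genes kept 4 were higher and 4 lower (median 0.09, negative with equal sums and on proteasome genes). In 5 of the 14 the lower library was under 5 FPKM, so these were kept through 1 library alone. Tubb2b had 399 FPKM at MZ 7 hpf, 58.9 at MZ 4.3 hpf and 140.1 in wild type and tuba8l4 had 334 FPKM at MZ 7 hpf, 45.2 at MZ 4.3 hpf and 171 in wild type. The tubulin gene tuba4l was lower, at 7.87 FPKM at MZ 7 hpf, 32.2 at MZ 4.3 hpf and 27.3 in wild type. Tubgcp2, of the microtubule nucleating complex, had 3.15 FPKM at MZ 7 hpf, 20.1 at MZ 4.3 hpf and 16.2 in wild type. Rab GTPase genes, taken as symbols of rab and a number, had 2 of 55 kept higher, rab34a and rab25a, and 11 lower (median -0.36 over those kept, 0.02 over 82 with values).

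Of 41 innate immune genes with values 17 were kept, beside 11065 of all 25386 genes with values. Of the 17, 7 were at least 2-fold lower and 2 higher, beside 25.2% and 13% of all genes kept. Their median was -0.84 over those kept and -0.06 over the 41. In 6 of the 17 the lower library was under 5 FPKM, so these were kept through 1 library alone. The higher ones were isg15, an interferon-induced ubiquitin-like gene of the early zygotic list, at 63.1 FPKM at MZ 7 hpf, 2.12 at MZ 4.3 hpf and 22.0 in wild type, and the NF-kappa-B inhibitor gene nfkbiaa, at 16.2 FPKM at MZ 7 hpf, 0.37 at MZ 4.3 hpf and 4.17 in wild type. Traf3, a signalling adaptor gene, was among the 62 genes under 1 FPKM at 7 hpf, at 0.87 FPKM at MZ 7 hpf against 11.4 at MZ 4.3 hpf and 7.17 in wild type.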

How the data were processed

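RNA was extracted with a column kit from dechorionated whole embryos, per the labels' protocols. The sources used here do not state poly(A) selection or strandedness. Named in the submitters' processing notes are RSEM 1.2.8, Bowtie2 2.2.5 and Trimmomatic 0.36 with the build GRCz11, without stating their roles. The deposited values are FPKM made by the authors, 1 column per library per the file headers, rounded to 0.01. FPKM gives no depth, so no counting interval can be set.

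Of 26437 rows 1051 had no value and were dropped. Genes that reached 5 FPKM in either mutant library were compared by log2 ratio with a pseudocount of 1, as deposited. With 1 library per group no test, error or p-value exists. Genes count as higher or lower from 4-fold, list members from 2-fold, on that scale. A gene listed at 0 in a library enters counts and medians but is given no ratio.

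The members and the 54 gene lists were chosen with earlier results of these data known, so no list is independent evidence. Lists also share members. Examples are krt18 (early zygotic and keratins), buc (oocyte and germ plasm) and hspb1 (chaperones and heat shock). Lists by name (34, with 1806 names) matched 1667 names by symbol and 59 through a RefSeq table of assembly GRCz12tu, used for names, types and gene order. A further 25 were duplicates, 37 were unmatched and 18 had no value. The other 20 lists take symbols by pattern, which admits some partners of a family. Named in the text are nup85 and nup133, the 15 largest ratios each way among genes of at least 20 FPKM without clone symbols, the 8 most abundant genes of each mutant library, up to 4 largest and 2 most abundant members per list, all members of lists with 10 or fewer kept, the gene pairs, list members that are 2-fold against their list's median, the markers, and the genes nearest the 5 FPKM limit. Alternatives were other pseudocounts, filters, thresholds and scalings. Some genes that meet these rules are not reported here. Promoter motifs were planned and are not analysed here. Scripts were tested on simulated data. Python 3.11.15, numpy 2.4.6, pandas 2.3.3 and matplotlib 3.10.9 were used.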

Additional observations from a re-analysis of the deposited data

How the results depend on the processing

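No paired analysis was possible because each group has 1 library, and for the same reason no library could be left out. With a pseudocount of 5 FPKM in place of 1, 435 genes in place of 944 were higher by 4-fold or more and 161 in place of 666 lower, since a larger pseudocount shrinks ratios of low genes. With a minimum of 20 FPKM, 454 genes were 4-fold higher, 208 in place of 620 had at least 5 FPKM at MZ 7 hpf and under 1 at MZ 4.3 hpf, and 1 in place of 62 had the opposite pattern, since fewer genes enter. With a mean of 5 FPKM over the 3 libraries these last counts were 343 and 2, and with a limit of 0.1 FPKM for the lower library 215 and 0. At 2-fold the counts were 1437 higher and 2788 lower, and at 8-fold 572 and 45. With the libraries scaled on proteasome genes, 1061 genes were at least 4-fold lower and 124 had at least 5 FPKM at MZ 4.3 hpf and under 1 at MZ 7 hpf. The median of all genes was -0.19 with a pseudocount of 5, -0.15 from 20 FPKM, 0 with no filter, -0.35 with equal sums, -0.086 by the median of ratios, -0.19 without the 1% most abundant genes and -0.55 on proteasome genes. The early zygotic median was 6.403 with a pseudocount of 0.1 and 3.21 with 5. That of keratins was 3.14 with no filter, because genes low in both libraries enter. The spliceosome median was 0.42 with equal sums, 0.70 by the median of ratios and 0.20 on proteasome genes. The ribosomal protein median was 1.33 by the median of ratios and 0.83 on proteasome genes. Scalings shift all ratios of abundant genes alike by construction. None of these list medians changed sign, and of 51 lists with at least 5 genes kept 31 kept their sign under every alternative tried. All 12 medians of at least 1 in size did so. Depth is unknown and cannot be weighed.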

Other observations

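Genes that lie beside each other in the RefSeq order of assembly GRCz12tu were examined for runs of at least 3 neighbouring genes kept that were all at least 4-fold higher at MZ 7 hpf. Among the 10723 genes kept that could be placed there were 25 such runs, and the longest held 16 genes. In 16 of the 25 every gene is a numbered zinc finger or bears only a clone or locus number, as in the run that holds znf1043, with 198 FPKM at MZ 7 hpf, 0.77 at MZ 4.3 hpf and 222 in wild type, and znf569l, with 24.1 FPKM at MZ 7 hpf, 1.47 at MZ 4.3 hpf and 11.7 in wild type. Other runs hold genes with names. The keratins krt5, krt8 and krt18 lie together, and so do krt92, cyt1l, cyt1 and krt17, and the claudins cldne, cldnf and cldna. The apolipoprotein genes apoeb, apoc1 and apoc2 form a run, in which apoc1 had 32.9 FPKM at MZ 7 hpf, 0.28 at MZ 4.3 hpf and 7.49 in wild type. A run around drl, a zinc finger gene of early lateral mesoderm, had drl at 159 FPKM at MZ 7 hpf, 0.49 at MZ 4.3 hpf and 27.1 in wild type. Neighbouring copies resemble each other and may share reads, whose part in these runs was not tested.

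Runs of genes at least 4-fold lower were shorter, 8 in number and each of 3 genes. Examples are klhl11, buc2l and kbtbd2, and mtus1a, mtmr7a and the deadenylase subunit gene cnot7. Mtmr7a had 0.71 FPKM at MZ 7 hpf, 8.86 at MZ 4.3 hpf and 4.36 in wild type. Genes that bear only a clone or locus number made up 424 (44.9%) of the 944 genes at least 4-fold higher, 104 (15.6%) of the 666 at least 4-fold lower, and 2051 (18.5%) of all genes kept. Genes named in these paragraphs were chosen after their values were seen.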
